A study of Mus musculus with 7 samples.

Results

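The genes of the proteasome were followed through erythroid differentiation with and without the metal chelator DTPA. The members were all gene symbols made of Psma, Psmb, Psmc, Psmd, Psme, Psmf or Psmg and a number, with pseudogene symbols left out. This gave 49 of the 55367 symbols in the tables. They comprise 7 standard core alpha genes, 7 standard core beta genes, 5 tissue-specific or inducible core genes, 6 base ATPases, 3 other base genes, 8 lid genes, 7 assembly chaperones, and 6 genes for activators and an inhibitor.

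The proteasome is the protease of the cytosol and nucleus that degrades proteins tagged with ubiquitin. Its core particle is a barrel of alpha and beta rings with the proteolytic sites inside. A regulatory particle caps the barrel: its base holds a ring of ATPases that unfold substrates, and its lid removes the ubiquitin. Dedicated chaperones assemble both particles, and alternative activators can open the core without ubiquitin. Maturing red cell precursors remodel and discard much of their proteome, partly through this system.

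G1E-ER4 cells are mouse erythroid progenitors without working endogenous GATA1. They express a fusion of GATA1 with part of the estrogen receptor, and adding estradiol switches on their terminal maturation. All 7 libraries come from this 1 line, in medium with serum, erythropoietin and Kit ligand. There was 1 library of undifferentiated cells taken at 0 h, without estradiol or DTPA. Another 3 libraries, the controls, were from cells given 100 nM β-estradiol for 24 h. The last 3 were from cells given the same estradiol for 24 h with 50 µM DTPA from the start. DTPA was used to deprive the cells of zinc, and it binds other metal ions too. The labels call the replicates biological but do not say whether they were separate cultures, so p-values measure only the spread between these libraries.

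Values are TPM, a measure of transcript abundance that divides reads by gene length and scales every library to the same total. Estimated depths ran from 17.6 M to 21.2 M reads, and the 3 DTPA libraries were the deepest, with at least 19.79 M. All 10 erythroid markers listed were above 0, with summed levels of 12644 TPM at 0 h, 49321 to 54111 TPM in the controls and 53124 to 64970 TPM under DTPA. Megakaryocyte markers (7 genes, with Vwf and Ppbp at 0) summed to 39.5 TPM at 0 h, 9.1 to 12.7 TPM in the controls and 42.4 to 51.5 TPM under DTPA. Most of the DTPA sum came from Gp1ba (24.2 TPM at 0 h, mean 26.5 TPM under DTPA) and Itgb3 (3.3 and 15.4 TPM), with Gp9 at 1.34 and 3.11 TPM. Pf4 and Itga2b went the other way, from 5.87 and 4.75 TPM at 0 h to means of 0.93 and 0.95 TPM under DTPA. The list as a whole thus did not return to its 0 h pattern. Myeloid and mast cell markers (8 genes, with Mpo, Itgam and Lyz2 at 0) summed to 14.9 TPM at 0 h and 3.4 to 5.8 TPM at 24 h. Within that list Cd68 was lower with DTPA than in the controls (means 1.66 and 2.78 TPM) and Hdc was higher (2.56 and 0.48 TPM). Lymphoid markers (6 genes, 4 of them at 0) summed to 0.1 TPM at 0 h, 0.2 to 1.1 TPM in the controls and 2.6 to 2.8 TPM under DTPA, nearly all from Cd79a at 24 h. Globin genes took 0.91% of all TPM at 0 h, 4.71% to 5.11% in the controls and 6.27% to 8.12% under DTPA. The part of these shifts in the results below was not tested.

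Of the 49 members, 45 were at 1 TPM or more in every library, and these 45 were the ones tested. Together the members made up 0.907% of all TPM at 0 h, 0.764% in the controls and 0.591% under DTPA. Their summed level was 9073 TPM at 0 h. It was 7556, 7728 and 7638 TPM in the controls and 5961, 5819 and 5950 TPM under DTPA. Every control library thus lay below 0 h, and every DTPA library below every control. The DTPA mean was 77.4% of the control mean and 65.1% of the 0 h value. In bulk RNA, fewer cells of a type and less RNA per cell cannot be told apart. The median member stood at 158 TPM at 0 h, 122 to 131 TPM in the controls and 96.5 to 102 TPM under DTPA. The most abundant member was Psmb2 at 0 h, with 558 TPM, and Psmd4 in all 6 libraries at 24 h, with 577 to 650 TPM.

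**Figure D1:**
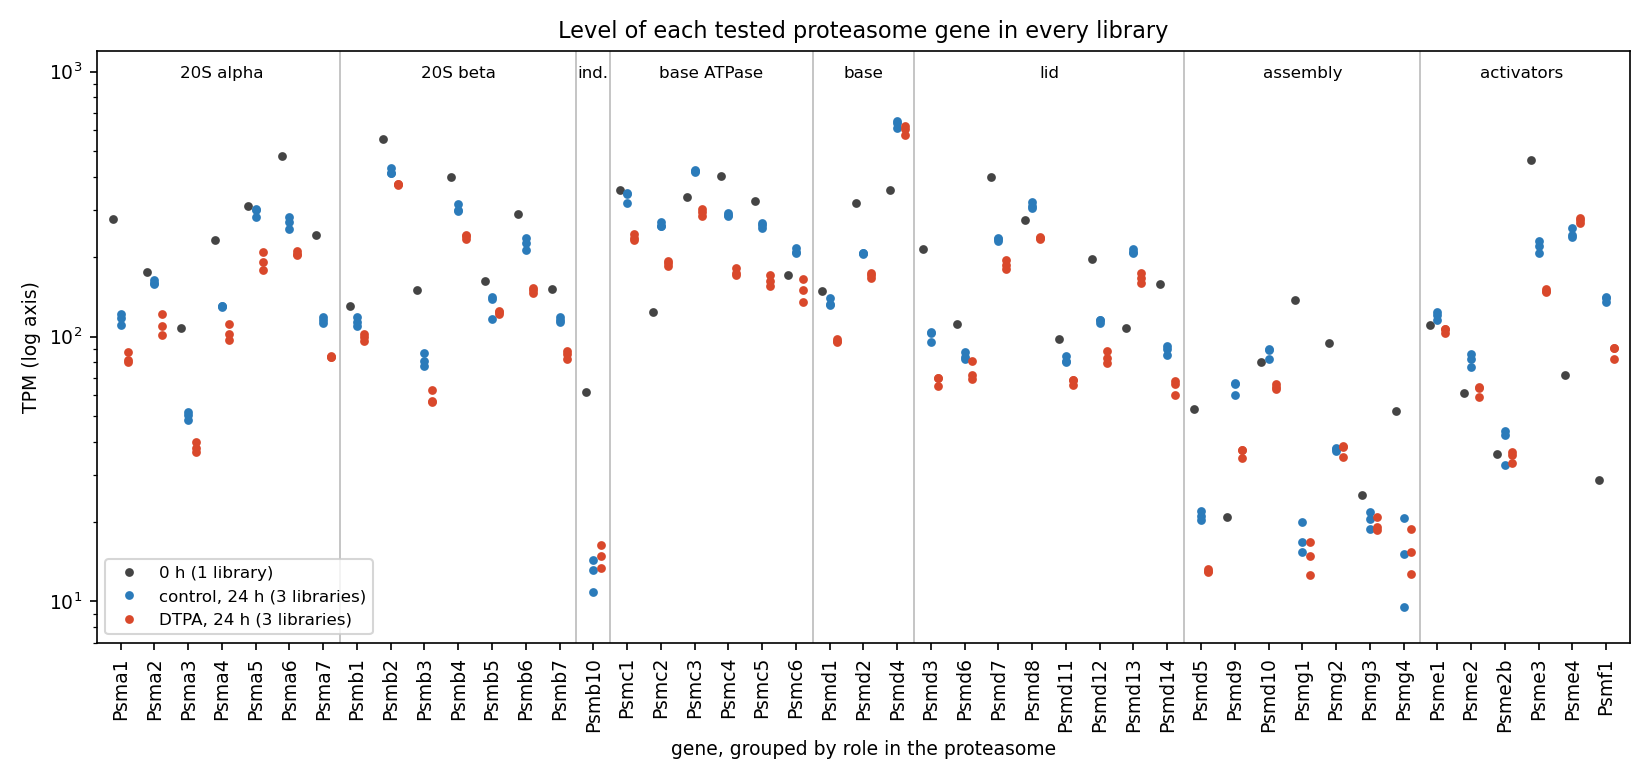
Level of each of the 45 tested proteasome genes in every library, in TPM on a log axis, grouped by role; points are single libraries, with 1 library at 0 h, 3 controls at 24 h and 3 DTPA libraries at 24 h. For 36 genes the 3 DTPA points lie below the 3 control points, and for Psme4 they lie above.

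The first comparison asked how the proteasome genes differed between cells that differentiated with DTPA and cells that differentiated without it. With DTPA, 36 of the 45 tested members fell, among them genes of the core, the base and the lid. Psme4, an alternative activator of the core, was the only member that rose, and 8 members were not called. The median log2 fold change of the members was -0.41, beside -0.09 for all 11147 genes tested. A gene was called at an adjusted p under 0.05 (limma on log2(TPM + 1), Benjamini-Hochberg over all genes tested), and all fold changes below are on that scale. Over all genes, 36.4% were called lower and 21.7% higher. For 36 members all 3 DTPA libraries lay below all 3 controls, which held for 40.3% of all genes tested. The reverse held for 1 member and for 24.7% of all genes. Under 2 other scalings of the libraries the median of all genes moved to 0.01. The members then counted 32 lower and 1 higher (median-of-ratios scaling, members' median -0.29) or 31 lower and 3 higher (quantile normalization, members' median -0.25). The shares of all genes called under these scalings are not given here, and the shares above belong to the main fit only.

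**Figure D2:**
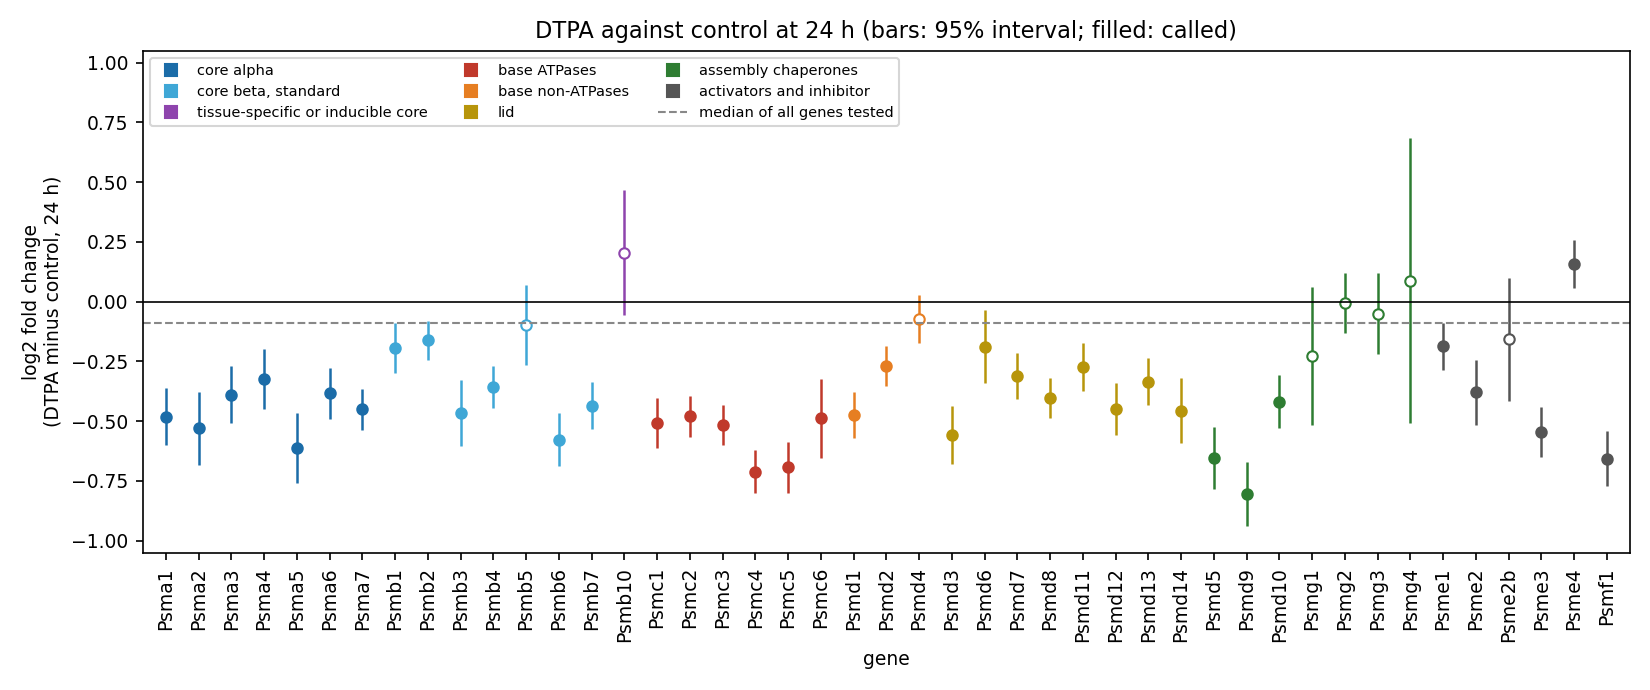
Log2 fold change of DTPA minus control at 24 h for the 45 tested proteasome genes, with bars for the 95% interval of the limma fit, filled circles for called genes, and a dashed line at the median of all genes tested. All 7 core alpha genes and all 6 base ATPases lie below 0 with filled circles, while 4 of the 7 assembly chaperones have open circles.

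All 7 alpha genes, which form the outer rings of the core and its gate, fell with DTPA. Their changes ran from -0.61 to -0.32, with a median of -0.45. Psma5 had 310.1 TPM at 0 h, 282, 300.5 and 302 TPM in the controls and 209, 191 and 178 TPM under DTPA. Its control libraries stayed near the 0 h value, and all 3 DTPA libraries were clearly lower (log2 fold change -0.61 ± 0.063 SE, limma adjusted p = 1.14e-04). Psma2 had 176 TPM at 0 h, 159, 158 and 164 TPM in the controls and 122, 102 and 109.7 TPM under DTPA. It showed the same order, with a change under DTPA of -0.53 ± 0.065 (limma adjusted p = 2.93e-04). The smallest falls in this ring were those of Psma4 and Psma6. Psma4 had 231 TPM at 0 h, 131, 129 and 130.4 TPM in the controls and 111, 97.3 and 103 TPM under DTPA. Psma6 had 482 TPM at 0 h, 255, 271 and 283 TPM in the controls and 211, 204 and 204 TPM under DTPA. In both genes the 3 groups did not overlap, highest at 0 h and lowest under DTPA, with changes under DTPA of -0.32 ± 0.053 and -0.38 ± 0.045.

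Of the 7 standard beta genes, 6 fell with DTPA, and they include 2 of the 3 genes for catalytic subunits. Psmb6, which carries the caspase-like site, had 291 TPM at 0 h, 225, 235 and 212 TPM in the controls and 146, 152 and 150.5 TPM under DTPA. Its 3 DTPA libraries all lay below the lowest control, a log2 change of -0.58 ± 0.047 (limma adjusted p = 3.41e-05). Psmb7, which carries the trypsin-like site, had 151 TPM at 0 h, 116, 114 and 119 TPM in the controls and 88.4, 82.3 and 86.3 TPM under DTPA. It too had no overlap between the groups, with a change of -0.43 ± 0.042 (limma adjusted p = 8.53e-05).

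Psmb5, which carries the chymotrypsin-like site, was the beta gene that was not called. Its values were 162 TPM at 0 h, 139, 141 and 117 TPM in the controls and 125, 121 and 124 TPM under DTPA. The lowest library of all was control replicate 3, so the groups overlapped, and the change was -0.10 (95% interval -0.27 to 0.07, limma adjusted p = 0.281). Without control replicate 3 the change was -0.18 with an adjusted p of 0.0071. A processed pseudogene, Gm3375, matches 98.9% of 796 bases of Psmb5 and was itself listed at 152 to 221 TPM, so reads may be split between them. With the copy's reads added at the length of Psmb5, the gene stood at 357 at 0 h, 300.3, 298 and 269 in the controls and 266, 259.9 and 258 under DTPA, all in TPM, and DTPA was called lower at -0.14 (limma adjusted p = 0.0414). Whether the changes of the 3 catalytic genes differ from each other was not tested.

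Among the structural beta genes the changes ranged from -0.47 in Psmb3 to -0.16 in Psmb2. Psmb3 had 151 TPM at 0 h, 81.04, 86.5 and 77.4 TPM in the controls and 56.7, 57.1 and 62.7 TPM under DTPA. Psmb2 had 558 TPM at 0 h, 415, 434 and 414 TPM in the controls and 377, 377 and 374 TPM under DTPA. The fall of Psmb2 was small, but the 3 DTPA libraries lay within 4 TPM of each other and below every control (limma adjusted p = 0.00523). The falls of Psmb1 and Psmb2 were not called under either other scaling (Psmb1 -0.09 and -0.03, Psmb2 -0.05 and -0.05 on the log2 scale).

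The inducible beta genes replace the 3 catalytic subunits in the immunoproteasome, the form that interferon induces. Psmb8 (chromosome 17, 34197721 to 34201454 in GENCODE M21 on GRCm38) was listed at 0 in all 7 libraries, where 3 reads would give 0.124 to 0.152 TPM. Psmb9, its neighbour on the chromosome, was at 0.05 TPM at 0 h, 0.36, 0.19 and 0 TPM in the controls and 0.24, 0.32 and 0.23 TPM under DTPA, which is an estimated 0 to 8 reads. Testis-specific Psma8 and thymus-specific Psmb11 were also listed at 0 throughout. Psmb10, on chromosome 8, was the only inducible gene with a clear level. It had 61.7 TPM at 0 h, 10.9, 14.4 and 13.1 TPM in the controls and 13.4, 16.4 and 14.9 TPM under DTPA. The 0 h library was far above all others, and the groups at 24 h overlapped, with a change under DTPA of 0.20 (95% interval -0.06 to 0.47, limma adjusted p = 0.158). With quantile normalization Psmb10 was called higher at 0.32 (limma adjusted p = 0.0463), and with a replicate block at 0.20 (adjusted p = 0.0448). Among genes listed for the interferon response, H2-K1 and Nlrc5 were at 0, and Tap1, Irf1, Ifit1 and Isg15 stayed at or below 2.13 TPM. H2-D1, a class I antigen-presenting gene, rose with DTPA by 1.22 (limma adjusted p = 2.70e-06), and Tapbp, a peptide loading factor, by 0.34 (adjusted p = 0.00127).

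The 6 base ATPases, which form the unfolding ring of the regulatory particle, all fell with DTPA, with a median change of -0.51. Psmc4 had 403 TPM at 0 h, 285, 293 and 287 TPM in the controls and 171, 174 and 182 TPM under DTPA. Psmc5 had 326 TPM at 0 h, 269, 265 and 257 TPM in the controls and 162, 155 and 171 TPM under DTPA. In both, the highest DTPA library was far below the lowest control, with changes of -0.71 ± 0.038 and -0.69 ± 0.046 (limma adjusted p = 4.10e-06 and 1.20e-05). The smallest falls were -0.48 ± 0.037 for Psmc2 and -0.49 ± 0.07 for Psmc6. Psmc2 had 124 TPM at 0 h, 262, 261 and 270.2 TPM in the controls and 194, 184 and 189.8 TPM under DTPA. Psmc6 had 170.4 TPM at 0 h, 208, 207 and 217 TPM in the controls and 165, 135 and 150.4 TPM under DTPA. Psmc2 was the ATPase gene whose DTPA libraries all stayed well above the 0 h value, whereas those of Psmc6 all lay below it. The summed level of the 6 genes was 1717 TPM at 0 h, 1787 ± 22.01 TPM in the controls (SD, n = 3) and 1210.0 ± 29.8 TPM under DTPA (SD, n = 3). DTPA thus held 67.7% of the control sum, the lowest share among the 7 classes with more than 1 tested gene.

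Of the 3 other base genes, Psmd1 and Psmd2, the large scaffold subunits, fell, and Psmd4, a ubiquitin receptor, was not called. Psmd1 had 149 TPM at 0 h, 133, 131 and 140.3 TPM in the controls and 95.99, 95.6 and 98.3 TPM under DTPA. Its change was -0.48 ± 0.041 (limma adjusted p = 4.44e-05). Psmd2 had 321 TPM at 0 h, 207, 205 and 206 TPM in the controls and 174, 166 and 171 TPM under DTPA. Its change was -0.27 ± 0.035 (limma adjusted p = 4.19e-04), and with quantile normalization it was -0.09 and not called. Psmd4 had 357 TPM at 0 h, 638, 650.0 and 614 TPM in the controls and 577, 609 and 622 TPM under DTPA. Here the highest DTPA library lay inside the control range, and the 95% interval of the change was -0.17 to 0.03. All 6 libraries at 24 h were far above 0 h.

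All 8 lid genes fell with DTPA, with a median change of -0.37. Psmd14, the zinc metalloprotease that cleaves ubiquitin from substrates, had 158 TPM at 0 h, 92, 89.9 and 85.6 TPM in the controls and 68.2, 66.2 and 60.02 TPM under DTPA. Its change was -0.46 ± 0.058 (limma adjusted p = 3.56e-04). Psmd7, its inactive partner in the lid, fell by 0.31 on the log2 scale, from 232 ± 3 TPM to 187 ± 7.38 TPM (SD, n = 3 in each). Psmd3, a structural lid subunit, fell most. Psmd3 had 215 TPM at 0 h, 103, 104 and 95.2 TPM in the controls and 64.9, 69.8 and 69.5 TPM under DTPA. Its 3 DTPA libraries were all far below the controls, at -0.56 ± 0.052 (limma adjusted p = 6.72e-05).

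Psmd11 and Psmd6 had the smallest falls in the lid. Psmd11 had 98.2 TPM at 0 h, 80.7, 80.1 and 84.7 TPM in the controls and 65.4, 68.8 and 68.4 TPM under DTPA. Psmd6 had 112 TPM at 0 h, 87.6, 82.05 and 83.6 TPM in the controls and 81.2, 69.1 and 71.9 TPM under DTPA. In Psmd6 the highest DTPA library was less than 1 TPM under the lowest control, and the call (log2 change -0.19 ± 0.065, limma adjusted p = 0.0385) was lost without any 1 of the controls (-0.16, -0.21 and -0.20, adjusted p 0.115, 0.0598 and 0.0716) or without DTPA replicate 2 or 3 (-0.14 and -0.17, adjusted p 0.12 and 0.109). It was also lost under both other scalings, at -0.08 and -0.04. Psmd8, Psmd12 and Psmd13, further structural lid genes, changed by -0.41, -0.45 and -0.34.

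By call, the assembly chaperones among the members divided by the particle they build. The 3 chaperones of the base, Psmd5, Psmd9 and Psmd10, all fell, and the 4 chaperones of the core, Psmg1 to Psmg4, were not called. Pomp, the maturation factor of the core, has a symbol outside the Psm series. It did fall, at -0.36 (limma adjusted p = 0.00112), so the division does not extend to it. Psmd9 (chromosome 5, 123169413 to 123250131, plus strand) had 20.8 TPM at 0 h, 66.5, 66.9 and 60.1 TPM in the controls and 34.9, 37.3 and 37.3 TPM under DTPA. The controls were about 3 times the 0 h value, and all DTPA libraries lay between 0 h and the controls. Its change of -0.80 ± 0.057 was the largest fall among the members (limma adjusted p = 1.71e-05). Psmd5 had 53.2 TPM at 0 h, 20.4, 20.99 and 22.03 TPM in the controls and 12.98, 12.9 and 13.3 TPM under DTPA. All controls lay below 0 h and all DTPA libraries below the controls, with a change under DTPA of -0.66 ± 0.056 (limma adjusted p = 4.31e-05). Psmd10, also known as gankyrin, had 80.1 TPM at 0 h, 82.7, 89.2 and 89.8 TPM in the controls and 66.5, 64.8 and 63.7 TPM under DTPA. Its DTPA libraries were below both 0 h and every control, at -0.42 ± 0.047 (limma adjusted p = 1.83e-04).

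Psmg1 and Psmg2 form a dimer that guides assembly of the alpha ring. Psmg1 had 137 TPM at 0 h, 15.4, 20.03 and 16.8 TPM in the controls and 12.6, 14.9 and 16.8 TPM under DTPA. Psmg2 had 94.7 TPM at 0 h, 38.05, 36.9 and 37.5 TPM in the controls and 35, 38.6 and 38.4 TPM under DTPA. The groups at 24 h overlapped in both, with 95% intervals of the change under DTPA of -0.52 to 0.06 and -0.13 to 0.12. With quantile normalization Psmg2 turned to a rise of 0.14 (limma adjusted p = 0.0415). Psmg3 and Psmg4, the other core chaperone pair, had changes of -0.05 (95% interval -0.22 to 0.12) and 0.09 (95% interval -0.51 to 0.68). Psmg3 had 25.3 TPM at 0 h, 20.5, 21.7 and 18.7 TPM in the controls and 20.9, 19.1 and 18.7 TPM under DTPA. Psmg4 had 52.4 TPM at 0 h, 15.1, 20.7 and 9.55 TPM in the controls and 12.7, 15.3 and 18.8 TPM under DTPA, from an estimated 31 to 172 reads, the fewest among the tested members. Its controls spread widely, so the interval allows a change of either sign. The difference between base and core chaperones was not itself tested.

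**Figure D3:**
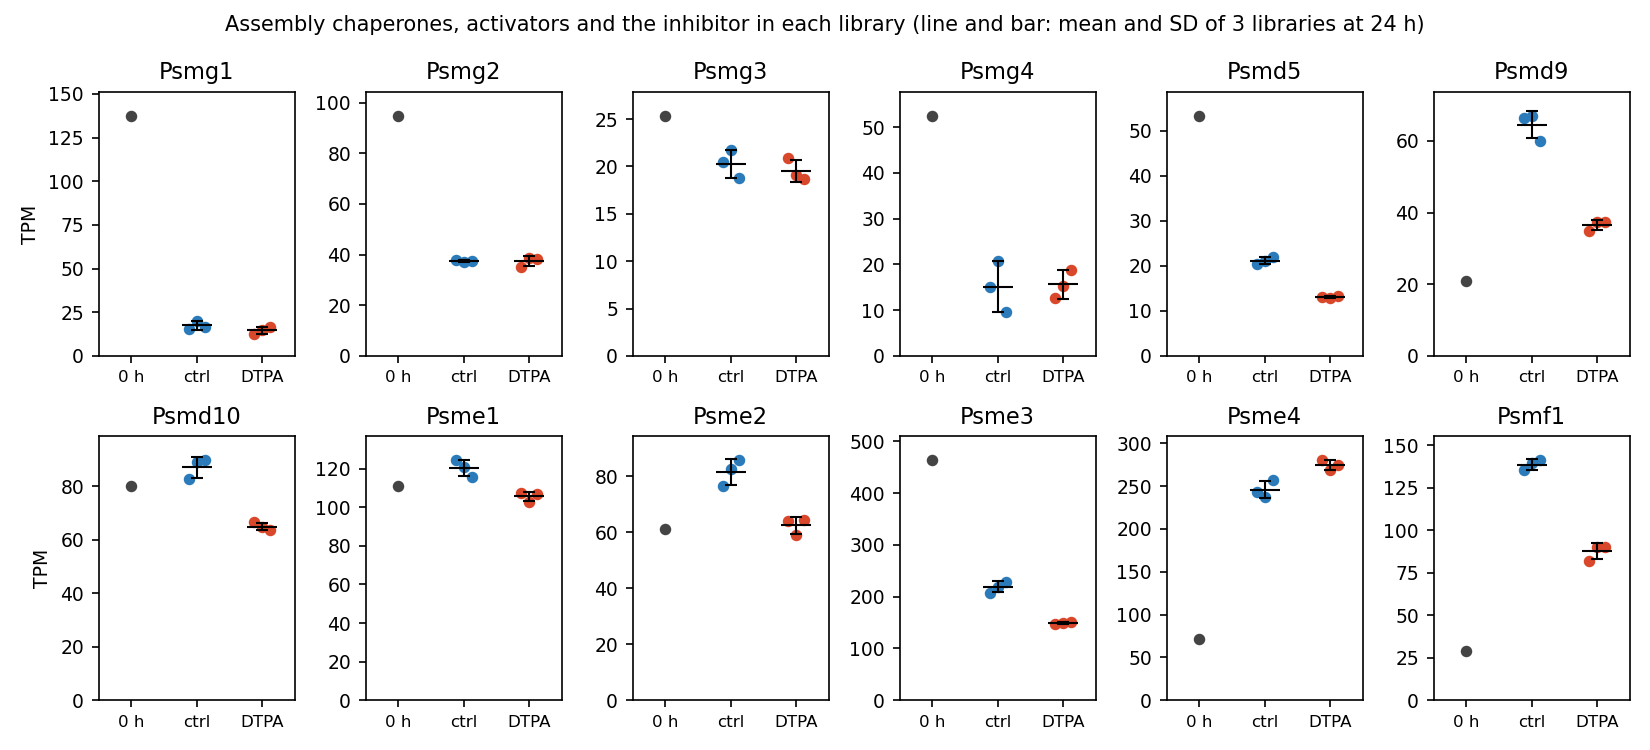
TPM of 12 assembly, activator and inhibitor genes in each library, on linear axes that start at 0; points are single libraries, and the line and bar give the mean and SD of the 3 libraries at 24 h. Psmg1 drops from 137 TPM at 0 h to under 21 TPM in every library at 24 h, Psmd9 and Psmf1 rise with differentiation and are lower under DTPA, and Psme4 rises to its highest values under DTPA.

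The alternative activators bind the ends of the core in place of the regulatory particle. Psme4, a large nuclear activator that does not use ATP or ubiquitin (chromosome 11, 30771726 to 30880361, plus strand), had 71.4 TPM at 0 h, 243, 238 and 258 TPM in the controls and 280.3, 268 and 275 TPM under DTPA. All 3 DTPA libraries were above all controls, and all 6 were more than 3 times the 0 h value. It rose with DTPA by 0.16 ± 0.043 (limma adjusted p = 0.0145), on an estimated 3536 to 16544 reads a library. That call was lost without control replicate 1 (0.15, adjusted p = 0.0541) or control replicate 2 (0.13, adjusted p = 0.0595). Psme3, the other nuclear activator, had 463 TPM at 0 h, 208, 219 and 229 TPM in the controls and 148, 148 and 152 TPM under DTPA. It went the opposite way, with all controls below 0 h and all DTPA libraries below the controls, and a change under DTPA of -0.55 ± 0.045 (limma adjusted p = 3.41e-05). The ratio of Psme4 to Psme3 was 0.154 at 0 h, 1.17, 1.08 and 1.13 in the controls and 1.90, 1.81 and 1.81 under DTPA. It was thus below 1 at 0 h and above 1 in every library at 24 h, highest in the 3 DTPA libraries.

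Psme1 and Psme2 form the cytosolic activator that interferon induces. Psme2 had 61.01 TPM at 0 h, 76.5, 82.6 and 85.7 TPM in the controls and 63.9, 59.02 and 64.5 TPM under DTPA, and fell with DTPA by 0.38 on the log2 scale (SE 0.058, limma adjusted p = 9.33e-04). Psme1 had 111 TPM at 0 h, 124, 121 and 116 TPM in the controls and 107, 103 and 107 TPM under DTPA, and its smaller fall of -0.19 (limma adjusted p = 0.00652) was not called under either other scaling (-0.08 and -0.01). Exons of Psme1 overlap 14 bases of Emc9 on the other strand. Psme2b, a near-identical copy of Psme2 that matches 99.4% of 794 bases, had 36.2 TPM at 0 h, 32.6, 42.4 and 44.1 TPM in the controls and 35.6, 33.3 and 36.8 TPM under DTPA. The groups overlapped through control replicate 1, and the change was -0.16 (95% interval -0.41 to 0.10). Without that library Psme2b was called lower at -0.29 (limma adjusted p = 0.00885). Levels of Psme2 and Psme2b are uncertain because their reads can be exchanged, and with both added at the length of Psme2 the change was -0.34 (adjusted p = 0.00303).

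Psmf1 encodes a protein first described as an inhibitor of the core and later as an adaptor for its transport (chromosome 2, 151715812 to 151744186, minus strand). Psmf1 had 28.9 TPM at 0 h, 135, 139 and 141 TPM in the controls and 82.2, 90.3 and 90.3 TPM under DTPA. All 6 libraries at 24 h were well above 0 h, and the DTPA libraries lay far below the controls, with a change of -0.66 ± 0.049 (limma adjusted p = 2.15e-05). Psmf1 and Psmd9 were thus higher in differentiated cells and lower with DTPA, whereas Psme4 was higher in both comparisons.

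The second comparison followed the members from 0 h to 24 h of control differentiation. Relative to the single 0 h library, 10 of the 45 tested members fell at least 2-fold and 4 rose at least 2-fold. A call here asks for an adjusted p under 0.05 and a log2 fold change of at least 1 in size, since the 0 h library has no replicate and is assumed to vary like the other groups. Over the 11906 genes tested, 24.3% were called lower and 15.1% higher, so the members' counts were no larger a share than those of all genes. By adjusted p alone 29 members were lower, where 43.6% of all genes were, and 10 were higher, where 30.9% of all genes were, so by this looser rule more of the members were lower and fewer higher. The members' median was -0.38, beside -0.22 for all genes. With median-of-ratios scaling 6 members were lower and 5 higher, and the members' median was -0.22, beside -0.065 for all genes. The shares of all genes called under that scaling are not given here.

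The largest falls were those of chaperones of the core and of an inducible subunit. Psmg1 fell by 2.92 on the log2 scale (SE 0.19, limma adjusted p = 3.27e-05), from 137 TPM to 17.4 ± 2.37 TPM (SD, n = 3). Psmb10 changed by -2.19, Psmg4 by -1.79, Psmg2 by -1.31 and Psmd5, the base chaperone, by -1.29. The fourth core chaperone, Psmg3, changed by -0.31 (95% interval -0.56 to -0.06) and was not called. In the alpha ring Psma1, Psma3 and Psma7 fell by more than 2-fold, at -1.25, -1.09 and -1.06, while Psma5 changed by -0.07 (95% interval -0.30 to 0.15) and Psma2 by -0.14 (95% interval -0.37 to 0.10). Psma1 had 278 TPM at 0 h, 111, 118 and 122 TPM in the controls and 87.1, 80.5 and 81.8 TPM under DTPA. Psma3 had 108 TPM at 0 h, 50.4, 48.6 and 52.1 TPM in the controls and 40.1, 38.01 and 36.6 TPM under DTPA. A pseudogene, Gm13835, matches all of 665 bases of Psma3 and was itself listed at 108 to 338 TPM. With the copies added the change of Psma3 was -1.07. The lid gene Psmd3 and the activator Psme3 were the other members called lower, at -1.09 and -1.08. With median-of-ratios scaling Psma3, Psma7, Psmd3 and Psme3 stood at -0.93, -0.90, -0.93 and -0.92, short of the 2-fold mark.

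The 4 members that rose were Psmf1, Psme4, Psmd9 and Psmc2. Psmf1 rose by 2.225 ± 0.065 (limma adjusted p = 1.86e-06), and Psme4 by 1.77 ± 0.054 (adjusted p = 2.18e-06). Psmd9 rose by 1.59 ± 0.078 (adjusted p = 1.13e-05), and Psmc2 by 1.08 ± 0.042 (adjusted p = 4.47e-06). Psmd13, a lid gene, and Psmd4, a ubiquitin receptor, stood at 0.96 and 0.83, under the 2-fold mark. Psmd13 had 107 TPM at 0 h, 206, 214 and 209 TPM in the controls and 173, 159.5 and 166 TPM under DTPA.

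The third comparison set DTPA at 24 h against the same 0 h library. Here 18 members were called lower and 2 higher, where 27.6% and 15.7% of the 12016 genes tested were; the share lower was above that of all genes and the share higher below it. By adjusted p alone 35 were lower and 6 higher, beside 46.6% and 29.9% of all genes. The median of the members was -0.69 and that of all genes -0.30. With median-of-ratios scaling 12 members were lower and 4 higher, again without the shares of all genes, and the members' median was -0.42, beside -0.043 for all genes. The members called higher were Psme4, at 1.93 ± 0.054 (limma adjusted p = 1.22e-06), and Psmf1, at 1.57 ± 0.065 (adjusted p = 4.67e-06). The largest falls were -3.14 ± 0.19 for Psmg1, -1.99 ± 0.17 for Psmb10 and -1.95 ± 0.065 for Psmd5 (limma adjusted p = 1.99e-05, 8.85e-05 and 2.10e-06).

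Each pair of the 3 comparisons shares libraries, so their values are only set side by side. In the alpha ring 3 genes were called lower from 0 h to control and 5 from 0 h to DTPA, with class medians of -0.84 and -1.22. Among the base ATPases the corresponding counts were 1 higher and 0 lower, then 0 higher and 2 lower (Psmc4 and Psmc5), with class medians of 0.11 and -0.39. The call of Psmc5, at -1.001, was at the 2-fold mark and was lost without DTPA replicate 1 (-0.999) or DTPA replicate 2 (-0.966). In the lid 1 and then 4 genes were lower, and in the standard beta ring 0 and then 1. The base chaperone Psmd9 stood at 1.59 and then 0.78, and Psmc2 at 1.08 and then 0.60. Psmg2 stood at -1.31 and -1.32, nearly the same value in both.

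**Figure D4:**
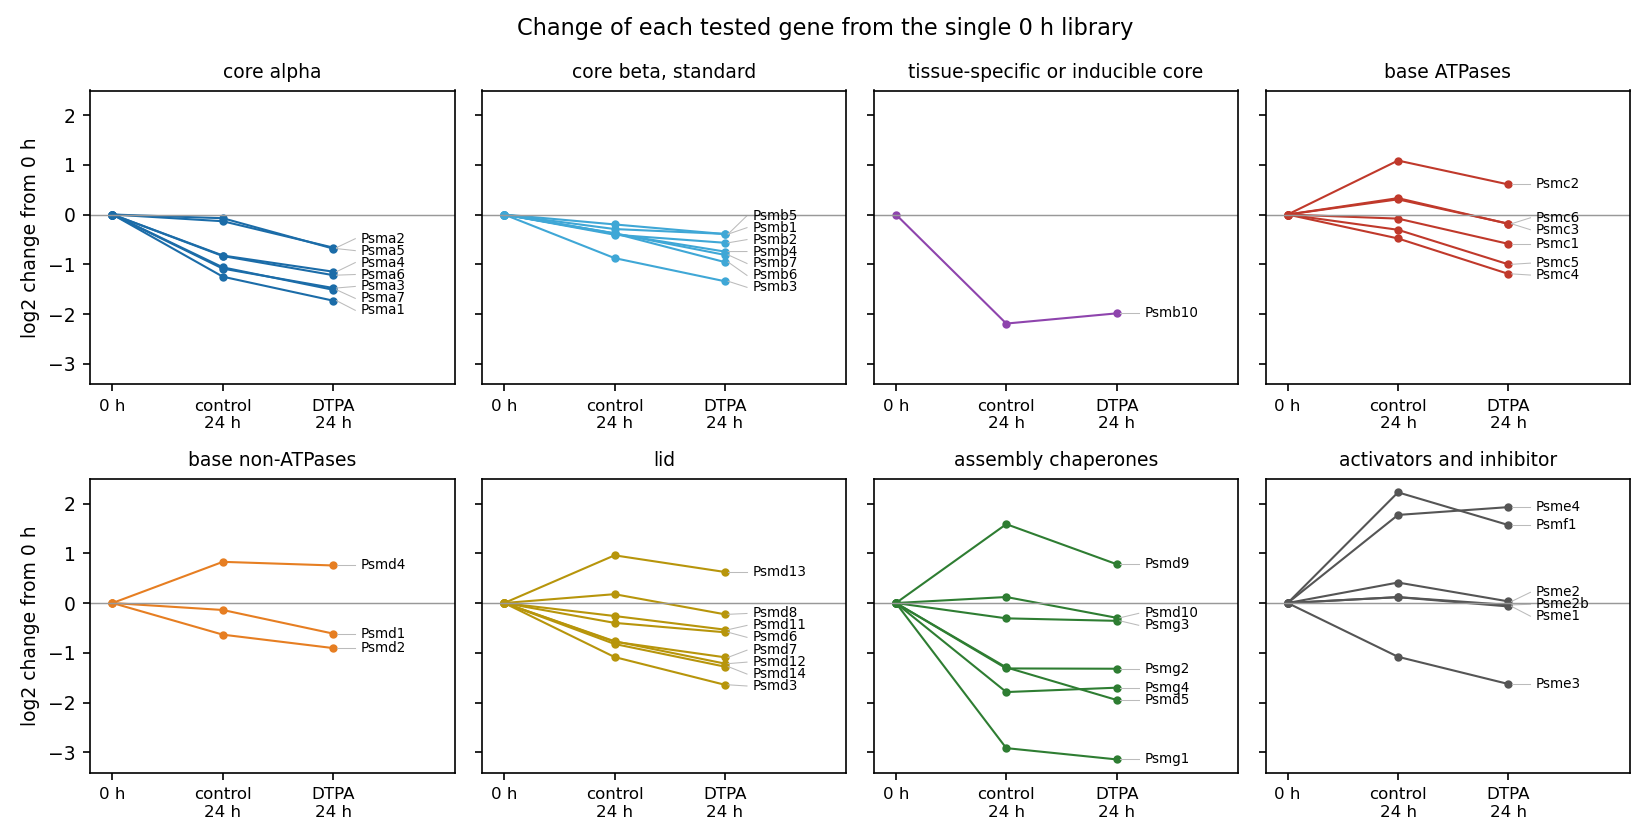
Log2 change of each tested proteasome gene from the single 0 h library to the control mean and to the DTPA mean at 24 h, in 1 panel for each role; lines join the values of a gene. The alpha genes lie at or below 0 at both points, the base ATPases spread around 0 in the controls and are each lower under DTPA, and Psme4 is the one activator whose line goes on rising.

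By group means, 30 of the 45 members were ordered 0 h above control above DTPA, an order that 3568 of the 11147 genes tested also had. They include all 14 standard core genes and 6 of the 8 lid genes. Among the 30, control and DTPA libraries overlapped in Psmb5, Psmg1, Psmg2 and Psmg3, so their order at 24 h is not resolved. Psme4 alone had the reverse order, which 2223 of the genes tested had. In 6 genes (Psmc3, Psmc6, Psmd8, Psmd10, Psme1 and Psme2b) the controls were highest and DTPA lowest, and in 6 others (Psmc2, Psmd4, Psmd13, Psmd9, Psme2 and Psmf1) the controls were highest and 0 h lowest. Psmb10 and Psmg4 had DTPA between 0 h and the lower controls. Libraries at 24 h also overlapped in Psmd4, Psme2b, Psmb10 and Psmg4. The 0 h value lay inside the DTPA range in Psme2 and Psme2b, and inside the control range in Psme2b. The place of 0 h in those orders is thus not resolved. By the 95% intervals, the sign of the step from 0 h to control was also not resolved in Psma2, Psma5 and Psmc1 (-0.14, -0.07 and -0.08). The same held for that step in Psmd10 and Psme1 (0.12 and 0.12), and for the step from 0 h to DTPA in Psmc6 and Psme1 (-0.18 and -0.07). The orders were not recomputed under the other scalings.

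The balance between the parts of the particle is given as ratios of summed levels, without a test. The summed TPM of the base ATPases over that of the alpha genes was 0.940 at 0 h, 1.59, 1.58 and 1.54 in the controls and 1.42, 1.48 and 1.54 under DTPA. All 6 libraries at 24 h were above 0 h, and control and DTPA libraries met at 1.54. The ratio of standard beta to alpha sums was 1.01 at 0 h, 1.26, 1.27 and 1.16 in the controls and 1.31, 1.41 and 1.43 under DTPA, so that each DTPA library lay above each control. For the lid over the alpha genes it was 0.855 at 0 h, 1.115, 1.077 and 1.044 in the controls and 1.123, 1.169 and 1.179 under DTPA. Levels within a ring were unequal although each subunit is used in equal number: the highest alpha gene was 4.45 times the lowest at 0 h and 5.25 to 6.18 times at 24 h. TPM depends on the annotated exon length, so such differences in level between genes carry the error of that length. The lowest alpha gene in every library was Psma3. Its reads may be split with the pseudogene Gm13835, listed at 108 to 338 TPM. With copies added, Psma3 stood at 168 TPM at 0 h, 76.8 to 84.9 in the controls and 55.9 to 64.3 under DTPA. The ratios were not recomputed with the copies.

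Short stretches of promoter are shown for upstream matches to motifs of GATA1, which starts differentiation in these cells, and of the Nfe2l1 family, which controls proteasome genes. RefSeq windows on GRCm38.p6, 250 bases before to 50 bases after the start, were found for 41 members, 38 of them tested. The motif AGATAA, the site preferred by GATA1, was searched on both strands and occurred in the windows of 3 of the 41 members (7.32%), namely Psmf1, Psmd9 and Psmc6, and in 12.7% of those of 26984 other genes. TGACNNNGC, the core of the antioxidant response element that Nfe2l1 and Nfe2l2 bind, occurred in 6 of the 41 (14.6%) and in 3775 of the 26984 others, and CCAAT in 14 of the 41 (34.1%) and in 41.1% of the others. Matches to CCAAT are counted only and not printed. Of the 4 members that rose from 0 h to control, Psmf1 and Psmd9 hold AGATAA, while Psme4 and Psmc2 have windows without it. No match shares bases with another in the stretches shown. Capitals mark the match, read 5′ to 3′ on the gene's strand, so a match on the opposite strand appears as TTATCT or as GC, 3 bases and GTCA.
Psmf1, chr2:151741391-151741426, minus strand, AGATAA: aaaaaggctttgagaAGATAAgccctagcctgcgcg
Psmd9, chr5:123228098-123228133, plus strand, AGATAA on the opposite strand: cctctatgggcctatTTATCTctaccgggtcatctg
Psmd9, chr5:123228144-123228182, plus strand, TGACNNNGC: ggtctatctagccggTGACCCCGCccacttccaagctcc
Psmb5, chr14:54618019-54618057, minus strand, TGACNNNGC: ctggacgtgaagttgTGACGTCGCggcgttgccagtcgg
Psmc6, chr14:45329582-45329620, plus strand, TGACNNNGC on the opposite strand: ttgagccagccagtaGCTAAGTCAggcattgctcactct
Psmd12, chr11:107479278-107479304, plus strand, TGACNNNGC on the opposite strand: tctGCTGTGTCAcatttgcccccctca

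The capitals begin 101 bases before the start in Psmf1, 77 and 31 bases before it in Psmd9, and 47 bases before it in Psmb5. They begin 227 bases before the start in Psmc6 and 247 in Psmd12. The other TGACNNNGC matches, in Psme4 and Psmb6, and the AGATAA match of Psmc6 lie next to or after the start and are not printed. Of the 6 members with TGACNNNGC, Psmd9, Psmb6, Psmc6 and Psmd12 fell with DTPA (-0.80, -0.58, -0.49 and -0.45), Psme4 rose (0.16) and Psmb5 was not called (-0.10). Among all 45 tested members 36 fell, as did 36.4% of all genes tested, so falls were no more frequent with the motif than in the members at large. A link between motif and change was not tested. The RefSeq starts of Psmf1 and Psmd9, and the stretches shown for them, lie inside the longer spans that GENCODE M21 gives these genes. A match of letters describes the window and is not evidence of binding.

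Other genes that work with the proteasome were read from a list of 33 genes found in the tables, of which 32 were tested. With DTPA 22 fell and 2 rose, with a median of -0.23, beside the shares of all genes given above. Pomp, the maturation factor of the core, had 57.5 TPM at 0 h, 51.4, 52.6 and 54.3 TPM in the controls and 42.4, 37.9 and 42.5 TPM under DTPA, a change of -0.36 (limma adjusted p = 0.00112). Sem1, a small lid subunit with a symbol outside the Psm series, had 77.3 TPM at 0 h, 104, 99.8 and 94.5 TPM in the controls and 69.9, 55.8 and 57.5 TPM under DTPA, a change of -0.70 (limma adjusted p = 3.08e-04). Adrm1, a ubiquitin receptor of the base, had 148 TPM at 0 h, 121, 123 and 108 TPM in the controls and 101, 112 and 116 TPM under DTPA, and its groups at 24 h overlapped (95% interval -0.25 to 0.07). As with Psmd4, another ubiquitin receptor, the change in Adrm1 was not called.

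Nfe2l1, the transcription factor that raises proteasome genes when the protease is impaired, had 50.1 TPM at 0 h, 58.6, 59.8 and 58.3 TPM in the controls and 51.4, 51.9 and 52.4 TPM under DTPA. It was lower in every DTPA library, by a small amount (-0.18, limma adjusted p = 0.00519). For Nfe2l1 and the other genes outside the members, results under the other scalings are not given here. Ddi2, the protease that cleaves Nfe2l1 into its active form, had 39.6 TPM at 0 h, 15.5, 16.3 and 16.6 TPM in the controls and 20.4, 21.4 and 20.8 TPM under DTPA. At 24 h Ddi2 was higher with DTPA than in the controls (0.35, limma adjusted p = 9.32e-04), and both groups lay below 0 h (-1.25 for the controls and -0.89 for DTPA, the latter under the 2-fold mark). Nfe2l2, the related factor of the oxidative stress response, and Ngly1, which removes sugars from Nfe2l1, were not called, at -0.10 (95% interval -0.20 to 0.01) and 0.20 (95% interval 0.02 to 0.38, limma adjusted p = 0.0597). Akirin2, which carries proteasomes into the nucleus, had 69.3 TPM at 0 h, 109, 113 and 114 TPM in the controls and 73.3, 73.9 and 70.04 TPM under DTPA. The controls lay above 0 h and the DTPA libraries lay at its level, with a change under DTPA of -0.62 (limma adjusted p = 1.20e-05).

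Among the proteasome-bound and shuttle genes the largest falls were those of Midn, which brings nuclear proteins to the proteasome without ubiquitin (-0.91), Rad23b, a ubiquitin shuttle (-0.84), and Uchl5, a deubiquitinase that docks on Adrm1 (-0.67). Nploc4, a cofactor of the segregase VCP, changed by -0.57, the ubiquitin ligase Ube3c by -0.56 and the thioredoxin-like protein Txnl1 by -0.51. Midn had 77.9 TPM at 0 h, 57.98, 56.4 and 53.6 TPM in the controls and 27.1, 31.2 and 29.7 TPM under DTPA. Rad23b had 224 TPM at 0 h, 82.6, 84.1 and 83.7 TPM in the controls and 47.1, 44.4 and 47.2 TPM under DTPA. In both genes every DTPA library lay below every control (limma adjusted p = 1.46e-05 and 3.09e-06).

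Several member levels carry a limit of the annotation. Besides those of Psmb5, Psma3 and Psme2, transcripts of Psma4, Psma5, Psmb3, Psmc1, Psmd2 and Psmd11 have pseudogene copies of at least 95% identity over 200 bases or more. With the copies that have a TPM value added (not so Gm8394 of Psma5, AC114990.1 of Psmb3 and AC110212.1 of Psmc1), and Psme2b merged into Psme2, DTPA against control gave 37 of 44 members lower and 1 higher, with a median of -0.42. Exons on the opposite strand overlap Psmd9 (25.5% of its exon length), Psmb7 (11.8%), Psmd13 (10.1%) and Psmc3 (8.2%), whose partner Slc39a13 is a zinc transporter at 4.41 to 11.7 TPM, far below Psmc3 at 286 to 427 TPM. Gm26745, the partner of Psmd9, has no TPM value, so its level beside that of Psmd9 is unknown. The kit keeps the strand, but the strand setting of the counting was not given in the sources used here.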

How the data were processed

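Messenger RNA was sequenced in 7 libraries: 1 at 0 h, 3 controls and 3 with DTPA at 24 h. Per the labels' protocols, libraries were made with a stranded mRNA kit. The submitters' processing notes name Trimmomatic 0.33, FastQC, HISAT2 2.1.0, featureCounts and edgeR, with build mm10. For the annotation, strand setting and multiply mapped reads, choices are not given in the sources used here. Gene values are TPM that the authors deposited per symbol, and rows that share a symbol were summed. Tests were two-sided and made on log2(TPM + 1) in R 4.3.3 with limma 3.58.1 (moderated variances that follow the mean level), and p-values were adjusted over all genes tested by Benjamini-Hochberg. For DTPA against control, 6 libraries were fitted and genes needed 1 TPM in at least 3. Against 0 h, all 7 libraries were fitted in 3 groups, and genes needed a mean of 1 TPM in either group and a log2 fold change of 1 to be called.

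Depth was estimated from the steps of low TPM values times GENCODE M21 exon lengths. Within each library 99.0% to 99.4% of the low values used came within 0.15 of whole reads. Pairs of replicate libraries differed by more than counting noise (mean chi-square per gene 2.99 to 9.18, where counting alone gives about 1). Near-identical copies were found with BLAST 2.17.0. The fit was tested on simulated data.

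The members and gene lists were chosen with earlier results of these data known. Values per library are given for the 6 catalytic and inducible beta genes, the extremes of each class in DTPA against control, the largest changes in each comparison, and all assembly and activator genes; a few others were added after their values were seen. Alternatives covered pseudocount, filter, scaling, globin removal, left-out libraries, a replicate block and the minimum fold. Adding reads of near-identical copies was chosen after seeing the data.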

Additional observations from a re-analysis of the deposited data

How the results depend on the processing

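In DTPA against control, 35 of the 45 tested members kept their call in all alternatives other than a minimum fold; against 0 h, 39 did for the controls and 37 for DTPA. With DTPA against control, the median was -0.29 with median-of-ratios scaling and -0.25 with quantile normalization, which called 3 members higher. A minimum log2 fold change of 0.5 left 0 higher and 12 lower. Shares of all genes called under the alternatives are not given, apart from those against 0 h without a minimum fold. Psmg2 reversed to 0.14 with quantile normalization. Leaving out 1 library in turn gave 0 to 1 higher, 35 to 36 lower and a median of -0.43 to -0.40; the count of 0 came without control replicate 1 or 2. Replicate numbers did not pair the samples (correlations of same-numbered deviations -0.01, 0.02 and -0.01), and a fit with the replicate block called 2 higher (Psmb10 added, at 0.20) and 36 lower.

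For control against 0 h, median-of-ratios scaling gave 6 lower and a median of -0.22, the removal of globin genes a median of -0.32, and no minimum fold 10 higher and 29 lower. For DTPA against 0 h, median-of-ratios scaling gave 4 higher and a median of -0.42. The median was -0.63 with quantile normalization and -0.59 without globin genes, and -0.75 to -0.66 when a library was left out; no minimum fold gave 6 higher and 35 lower. The causes were not tested. The single 0 h library limits both of these comparisons, and depth limits Psmg4 and Psmb9.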

Other observations

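Of the 9 listed genes for ubiquitin, its activating enzymes and VCP, 5 fell with DTPA and 4 were not called, where 36.4% of all genes tested were called lower. Their median was -0.19, beside -0.09 for all genes. Uba6, an alternative ubiquitin-activating enzyme, changed by -0.50 (limma adjusted p = 8.67e-04). Ecpas, a scaffold that holds core and regulatory particle together, was one of the 2 listed partners that rose with DTPA, by 0.23 (adjusted p = 0.00766). Zfand5, which activates the proteasome in wasting muscle, rose from 0 h to control by 1.55 (adjusted p = 3.19e-06), and was at 14.2 TPM at 0 h, 43.4, 43.5 and 43.3 TPM in the controls and 32.7, 31.1 and 30.5 TPM under DTPA.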
